A study of Homo sapiens with 4 samples.

Results

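Potassium channel genes whose symbols begin with KCN were read on 2-colour arrays of A2780s cells, an established human epithelial ovarian cancer (EOC) cell line. The members were all array probes, apart from control spots, whose gene name starts with KCN. They were 157 of 41000 probes and carried 98 gene names. Of these, 139 probes for 92 genes were tested, because both arrays of a group read them well above background in a channel. KCNF1, KCNG2, KCNJ3, KCNB2, KCND1 and the noncoding KCNMB2-AS1 did not pass this filter.

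In GALNT3 KO, the GALNT3 gene, which encodes an enzyme that starts O-glycosylation, had been knocked out with CRISPR-Cas9. GALNT3/T6 KO clones were such GALNT3 KO clones that also carried shRNA against GALNT6, a related enzyme, so the shRNA vector and its selection went together with the group. The study describes Ctrl as mock-transfected A2780s cells and speaks of corresponding Ctrl clones for the arrays. Its methods name a control CRISPR/Cas9 plasmid and, for the shRNA, control clones with a scramble sequence in the same vector. They do not say which of these the Ctrl of each array carried. Whether the same Ctrl RNA was used on all arrays is not given in the sources used here. Total RNA of 2 clones per group, labelled with Cy5, was hybridized against Ctrl RNA labelled with Cy3, on 4 arrays of 1 slide and without a dye swap. A log2 ratio is that of KO over Ctrl, and a difference between the groups is one between such ratios. An effect of the dye on a probe is not cancelled. The p-values measure the spread of the ratios between arrays, in which clone, Ctrl channel and hybridization are not separated. The spread between Ctrl clones is left out if the same Ctrl RNA was used on all arrays. A gene is called, or said to rise or fall, when limma's p, adjusted by Benjamini-Hochberg over all probes, is at most 0.05 and the change at least 1.5-fold. Each gene was read on its brightest tested probe. In RNA from whole cultures, fewer cells that express a gene and less RNA per cell cannot be told apart.

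KCNMA1 encodes the pore-forming subunit of the BK channel, a potassium channel of large conductance that opens with membrane depolarization and with calcium inside the cell. The KCNMB genes encode its beta subunits, membrane proteins that change its calcium sensitivity and its gating and do not form a pore themselves. The other KCN families include voltage-gated Kv channels with their accessory subunits, calcium-activated SK and IK channels, inward rectifiers and the K2P channels that carry background currents. Potassium channels set the membrane potential, and in epithelial and tumor cells they are studied for their part in cell volume, proliferation and migration.

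The labels were checked on the targeted genes. On the GALNT3 KO arrays neither channel read the GALNT3 probe (chromosome 2, 166604416 to 166604475, hg19) well above background, so it checks nothing there. On the arrays with the label GALNT3/T6 KO its log2 ratio was 4.80 and 5.08, and averaged 4.94 (standard error 0.11, adjusted p = 8.61e-05). More GALNT3 RNA than in Ctrl is not what the label leads one to expect. These 2 are therefore called the GALNT3/T6-labelled arrays throughout, and every direction drawn from them is that of arrays with this GALNT3 reading. It is RNA on a single probe, while the study checked the loss of GALNT3 protein in its knockout clones by Western blot. Whether the samples are as labelled was not tested. GALNT6 stood at -0.47 and -0.38 on the GALNT3 KO arrays and at -0.66 and -0.69 on the GALNT3/T6-labelled arrays, where it fell (mean -0.67, adjusted p = 0.0031). The groups' difference in GALNT6 of -0.25 was not called (limma, adjusted p = 0.211). By Western blot the study reported more GALNT6 protein in its GALNT3 KO clones, and the values here are of RNA. Between 86.9% and 93.8% of the spots in a channel were well above background, and no KCN probe was saturated. Of 7 epithelial and ovarian markers, 0 were called in GALNT3 KO, where 2.39% of all genes rose and 4.64% fell. On the GALNT3/T6-labelled arrays 5 rose, beside 14.3% of all genes. They were KRT18 (5.68), KRT8 (2.83), PAX8 (1.21), WT1 (1.01) and CDH1 (0.75), while EPCAM (0.65) and MUC16 (0.06) were not called. The summed signal of the 7 markers was 6721 to 7532 in the KO channel of the GALNT3 KO arrays and 511585 to 525531 in that of the GALNT3/T6-labelled arrays. In the Ctrl channel it was 5828 to 6155 and 24126 to 25036. Signals were summed unlogged, so the brightest markers weigh most. In the KO channel of the GALNT3/T6-labelled arrays, KRT18 had log2 signals of 18.78 and 18.51 and KRT8 16.14 and 17.01. EPCAM had 8.11 and 9.51 there and MUC16 8.42 and 7.84, so these sums are mostly KRT18 and KRT8. The mesenchymal marker VIM had means of 1.12 in GALNT3 KO and -2.36 on the GALNT3/T6-labelled arrays, where it fell. The leukocyte marker PTPRC was not called, and the endothelial marker PECAM1 did not pass the filter. The glial marker GFAP had a mean of 0.69 on the GALNT3/T6-labelled arrays, where it was called on its brightest probe. Its other tested probe stood at 0.04 there and was not called, and a further probe did not pass the filter. The part of these markers in the KCN values was not tested.

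Most KCN genes were not called. In GALNT3 KO 4 of 92 genes rose (4.35%) and 3 fell (3.26%), against 2.39% and 4.64% of all 27196 genes tested. On the GALNT3/T6-labelled arrays 8 rose (8.7%) and 13 fell (14.1%), against a background of 14.3% and 16.9%. Against GALNT3 KO, the GALNT3/T6-labelled arrays had 4 genes higher (4.35%) and 10 lower (10.9%), beside 11.5% and 11.3%. The share of rises in GALNT3 KO lay above the background, but its 4 genes include KCNMA1, which was singled out for its rise in these arrays. The shares in GALNT3 KO rest on only 4 and 3 genes. The 10.9% lower than GALNT3 KO was near the background of 11.3%, and the remaining shares lay below theirs. By probe, limma called 11 of 139 KCN probes (7.91%) in GALNT3 KO, against 7.14% of all probes. It called 29 (20.9%) on the GALNT3/T6-labelled arrays, against 32.2%, and 20 (14.4%) between the groups, against 23.6%.

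The median log2 ratio of the 92 genes was 0.13 in GALNT3 KO and 0.10 on the GALNT3/T6-labelled arrays, beside 0.02 and 0.03 over all genes. Their median absolute log2 ratio was 0.20 and 0.22, beside 0.21 and 0.35 over all genes. KCNMA1, which was singled out for its rise in these arrays, was the only KCN gene that rose in both groups, on its brightest probe. That probe was chosen with the KO channel included, and it had the largest mean ratios of the 6 KCNMA1 probes. KCNA7, KCNH2 and KCNJ2 fell in both, and KCNMB4 rose in GALNT3 KO and fell on the GALNT3/T6-labelled arrays. Both comparisons were made against Ctrl RNA, so these counts are not independent. They also rest on the labelled direction of the GALNT3/T6-labelled arrays. Were their ratios turned, KCNMB4 would be the only KCN gene higher in both groups, and KCNMA1, KCNA7, KCNH2 and KCNJ2 would have opposite directions. On these arrays GALNT3 would then be lower than Ctrl and GALNT6 higher. Whether the ratios are turned was not tested. When either GALNT3 KO array was left out, a lone array remained in that group. The calls there were then lost for KCNMA1, the other KCN genes and the called genes outside the KCN family that are described here. KCNMA1 stood at 4.26 without replicate 1 and at 4.12 without replicate 2. Between the groups most of the 14 calls were lost too. How many of all genes lost their calls was not counted, so this loss cannot be read as particular to the KCN genes.

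KCNMA1 was measured with 6 probes, all on the minus strand of chromosome 10 (hg19). It was singled out for its rise in these arrays, so its values are a description. Of the 6 probes, 4 passed the call threshold in GALNT3 KO and 2 on the GALNT3/T6-labelled arrays, and all 6 lay above 0 on each of the 4 arrays. The sizes fell into separate ranges. The brightest probe, A_24_P156490 (78644767 to 78644826, from base 5911 of NM_002247), had log2 ratios of 4.12, 4.26, 3.41 and 3.63 on GALNT3 KO replicates 1 and 2 and on replicates 1 and 2 of the GALNT3/T6-labelled arrays. The means were 4.19 (18.3-fold, standard error 0.10, adjusted p = 0.00232) and 3.52 (11.5-fold, adjusted p = 8.98e-05). All 4 arrays were high.

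Probe A_32_P181222 lies from base 1587 of the same transcript, and its 60 bases span 78844448 to 78846275 in the genome, across an exon junction. Its log2 ratios were 3.22, 3.50, 2.96 and 3.39, with means of 3.36 (adjusted p = 0.00504) and 3.17 (adjusted p = 0.000201). This probe, too, was high on all 4 arrays, and its ranges in the 2 groups overlapped.

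The other 4 probes read KCNMA1 at smaller ratios, whose size depended on the processing. A_23_P60727 (78649245 to 78649304, from base 3368) stood at 0.91, 0.70, 0.40 and 0.64. Its mean of 0.80 passed the threshold in GALNT3 KO (adjusted p = 0.0267), and its mean of 0.52 on the GALNT3/T6-labelled arrays stayed under 1.5-fold. A_24_P61150 (78647243 to 78649237, spliced, from base 3435) stood at 0.14, 0.83, 0.25 and 0.37 and was not called in either group. With Agilent's own log ratio, A_23_P60727 had means of 2.51 in GALNT3 KO, where the call was lost (adjusted p = 0.0977), and 1.04 on the GALNT3/T6-labelled arrays. These probes lie next to each other in the transcript, between the pair with high ratios.

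The probes at the ends of the KCNMA1 region behaved likewise. A_32_P192692, the most 3′ probe (78629464 to 78629523, from base 11829 of NM_001014797), had log2 ratios of 1.28, 0.86, 0.47 and 0.34. Its mean was 1.07 in GALNT3 KO (2.09-fold, adjusted p = 0.0236) and 0.40 on the GALNT3/T6-labelled arrays (adjusted p = 0.0544). A_24_P916196, the most 5′ probe (79253560 to 79253619, from base 455 of XM_006717828), stood at 0.51, 0.33, 0.15 and 0.33 and was not called. In the Ctrl channel it was above background only on replicate 2 of each group. With Agilent's own log ratio its means were 1.19 and 0.92, and the latter was called (adjusted p = 0.0147). Along the transcript the large ratios did not follow a 5′ to 3′ order. With the mean of all 6 probes, KCNMA1 had log2 ratios of 1.72 in GALNT3 KO and 1.36 on the GALNT3/T6-labelled arrays.

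The probe sequences of the coding part of KCNMA1 are shown because they mark the pieces of the transcript that gave unlike ratios. They are printed in the sense of the transcript, as the array files give them, and each has at least 1 reading frame without a stop codon. No base is set in capitals.
A_32_P181222 (mean log2 ratios 3.36 and 3.17): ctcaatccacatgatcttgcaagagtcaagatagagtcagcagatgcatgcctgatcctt
A_23_P60727 (mean log2 ratios 0.80 and 0.52): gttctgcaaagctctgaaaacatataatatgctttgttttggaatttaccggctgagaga
A_24_P61150 (mean log2 ratios 0.49 and 0.31): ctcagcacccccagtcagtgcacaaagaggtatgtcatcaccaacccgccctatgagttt
The GC content was 45% for A_32_P181222, 36.7% for A_23_P60727 and 53.3% for A_24_P61150. The brightest probe, also with large ratios, had 35%, the lowest of the 6, and the end probes had 43.3% each.

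**Figure D1:**
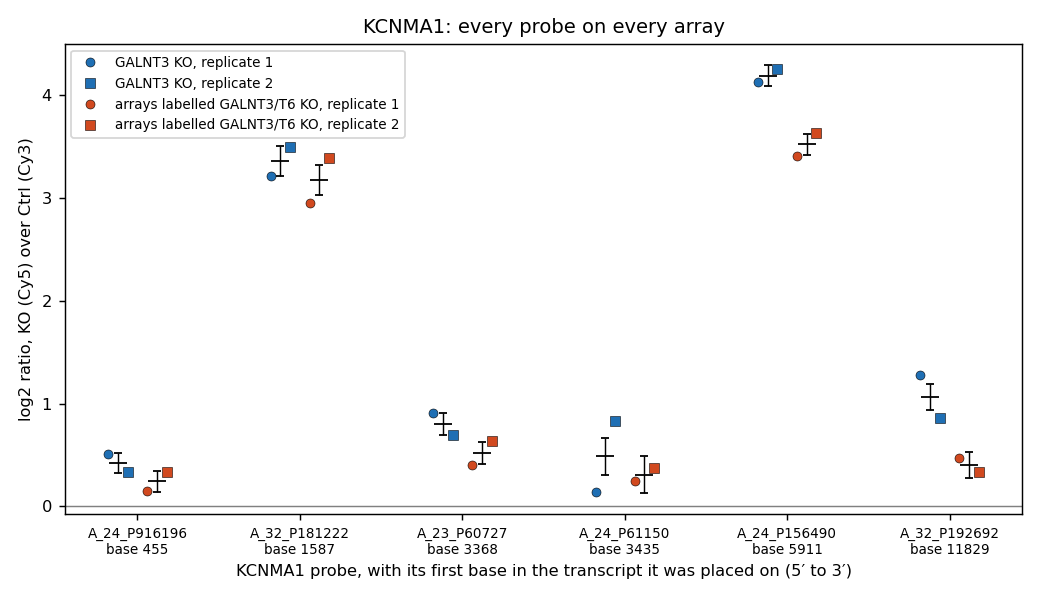
Log2 ratio of KO over Ctrl for each of the 6 KCNMA1 probes, ordered from 5′ to 3′, with a point per array and a black dash with bars for the group mean and its limma standard error. The probes from base 1587 and base 5911 lie above 2.9 on all 4 arrays, and the other 4 probes lie between 0.14 and 1.28.

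The difference between the groups in KCNMA1 was small beside the rise over Ctrl. On the brightest probe the log2 ratio was lower on the GALNT3/T6-labelled arrays than in GALNT3 KO by a difference of -0.67 (standard error 0.14, adjusted p = 0.0276), and both arrays of 1 group lay below both of the other. The call was lost with median centring in place of loess (-0.64, adjusted p = 0.117) and with the mean of all probes (-0.36, adjusted p = 0.0977). Leaving out GALNT3 KO replicate 1 (-0.74), GALNT3 KO replicate 2 (-0.60) or replicate 1 of the GALNT3/T6-labelled arrays (-0.56) ended it too. On probe A_32_P181222 the difference was -0.18 (adjusted p = 0.615). After loess the log2 signal of the brightest probe in the KO channel was 15.49 and 15.22 on the GALNT3 KO arrays and 14.02 and 14.23 on the GALNT3/T6-labelled arrays. In the Ctrl channel it was 11.36 and 10.96 against 10.61 and 10.60, so the Ctrl signal was higher on the GALNT3 KO arrays as well.

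The beta subunit genes differed from each other. KCNMB4, whose beta4 subunit is known from the brain, rose in GALNT3 KO and fell on the GALNT3/T6-labelled arrays. On its brightest probe A_23_P64792 (chromosome 12, 70824623 to 70824682) the log2 ratio was 1.74, 1.56, -2.42 and -1.55. The mean was 1.65 in GALNT3 KO (3.14-fold higher, standard error 0.22, adjusted p = 0.0262) and -1.99 on the GALNT3/T6-labelled arrays (3.97-fold lower, adjusted p = 0.00222). The groups did not overlap and differed by -3.64 (adjusted p = 0.00223), the lowest value among the 92 genes. A second probe 3′ of it, A_32_P219635, had the same directions at 0.44, 0.43, -0.50 and -0.44. It stayed under 1.5-fold against Ctrl, and the groups differed by -0.90 (adjusted p = 0.0067). With the mean of both probes the log2 ratios were 1.04 and -1.23.

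KCNMB3, a further beta subunit gene, stood at -0.17, -0.22, -0.82 and -0.86. It fell on the GALNT3/T6-labelled arrays (mean -0.84, adjusted p = 0.00151) and was lower there than in GALNT3 KO by -0.65 (adjusted p = 0.017). KCNMB1, whose beta1 subunit is known from smooth muscle, had means of 0.41 and 0.38 on its brightest probe and of -0.25 and -0.28 on the other, and none was called. KCNMB2 had means of 0.31 and 0.23 on its brightest probe and of -0.13 and -0.27 on the other, likewise not called. Of the gamma subunit genes of BK channels, LRRC38 and LRRC55 were tested, and neither was called in any comparison. LRRC26 and LRRC52 were not among the gene names of the array.

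**Figure D2:**
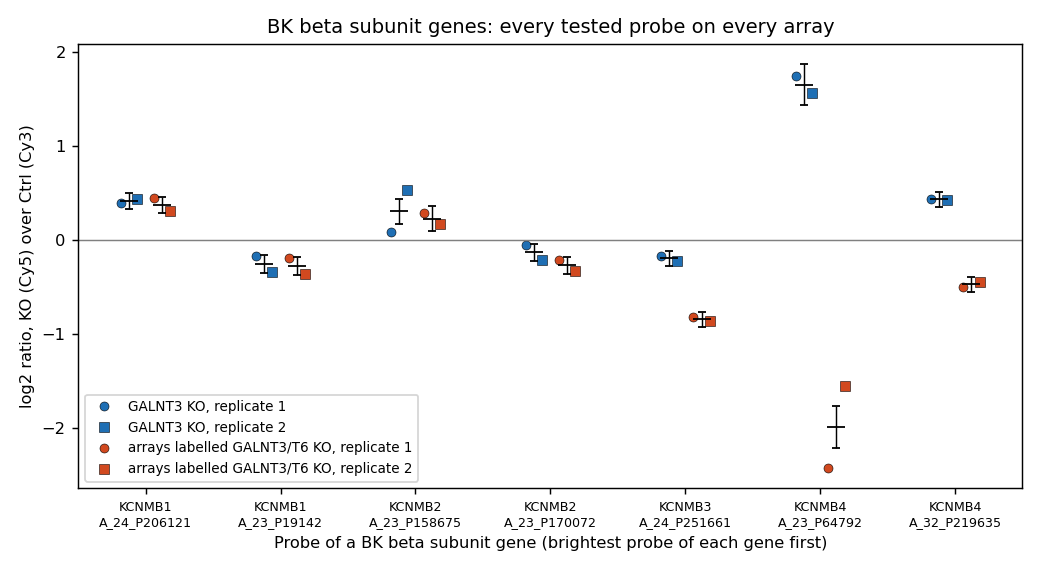
Log2 ratio of KO over Ctrl for every tested probe of KCNMB1 to KCNMB4, with a point per array and a black dash with bars for the group mean and its limma standard error. The KCNMB4 probe A_23_P64792 lies at 1.56 and 1.74 on the GALNT3 KO arrays and at -1.55 and -2.42 on the GALNT3/T6-labelled arrays, and KCNMB1 and KCNMB2 stay within 0.53 of 0.

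Among the relatives of BK that calcium also activates, the 4 SK and IK genes were tested. KCNN2, which encodes a small-conductance channel gated through calmodulin, stood at 0.04 and -0.11 on the GALNT3 KO arrays and at 3.12 and 3.18 on the GALNT3/T6-labelled arrays. It rose there (mean 3.15, 8.88-fold, standard error 0.09, adjusted p = 8.98e-05) and differed between the groups by 3.18 (adjusted p = 0.000411). Its Ctrl channel was brighter on the same arrays, at log2 signals of 10.11 and 10.31 against 9.03 and 8.62. KCNN1, another small-conductance channel, fell on the GALNT3/T6-labelled arrays (-0.65 and -0.64, mean -0.64, adjusted p = 0.00391). KCNN3 and KCNN4, the latter of intermediate conductance, were not called.

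Of the 15 K2P genes, 0 were called in GALNT3 KO (limma), and KCNK1 and KCNK15 rose on the GALNT3/T6-labelled arrays, a share near the 14.3% of all genes that rose there. KCNK1, whose TWIK1 protein carries a weak background current, stood at 0.06, 0.19, 2.67 and 4.43. The mean of 3.55 on the GALNT3/T6-labelled arrays (11.7-fold, standard error 0.41, adjusted p = 0.0026) lay far above both GALNT3 KO arrays, and the 2 arrays behind it differed. KCNK15, of the acid-sensitive TASK group, stood at 0.32, 0.51, 2.30 and 3.21, with a mean of 2.76 on the GALNT3/T6-labelled arrays (adjusted p = 0.000955). Its other probe also rose there, with a mean of 1.75. On that probe the Ctrl channel was brighter on the GALNT3/T6-labelled arrays too, at 8.27 and 9.05 against 7.16 and 6.74.

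The electrically silent Kv subunits form no channel alone and modify Kv2 channels. KCNS3 stood at -0.09 and -0.06 on the GALNT3 KO arrays, where neither channel was well above background, and at 3.54 and 3.76 on the GALNT3/T6-labelled arrays. It passed the filter only through the arrays on which it was high, and on replicate 1 of these the Ctrl channel was not well above background, so these ratios are in part against background. Their mean was 3.65, and 5.30 in the deposited value table. Between the KO channels of the groups it was at least 10.0-fold higher on the GALNT3/T6-labelled arrays, a lower bound that is open to dye bias. KCNG1 (mean -0.69) and KCNG3 (-0.69) fell on the GALNT3/T6-labelled arrays. The KCNG1 call was lost with the mean of its probes (-0.12), on dropping either GALNT3 KO array, and without replicate 1 of the GALNT3/T6-labelled arrays. The KCNG3 call was lost with Agilent's own log ratio (-0.51) and without replicate 1 of the GALNT3/T6-labelled arrays (-0.51). KCNS1 stood at 0.42, 1.01, -0.28 and -0.54 and was called only between the groups (-1.12, adjusted p = 0.0288).

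Among the Kv7 genes, KCNQ1, which pairs with KCNE1 in the heart, rose on the GALNT3/T6-labelled arrays by a mean of 0.64 (adjusted p = 0.0099), and KCNQ3, a Kv7 subunit of neurons, by 0.72 (adjusted p = 0.0104). Both calls were lost without replicate 2 of the GALNT3/T6-labelled arrays and with Agilent's own log ratio. KCNQ1OT1, a noncoding RNA transcribed opposite to KCNQ1 in an imprinted region, stood at 0.57, 0.16, 1.28 and 0.69 and rose on the GALNT3/T6-labelled arrays (mean 0.98, adjusted p = 0.0113). Its other probe also rose there (0.77), and on the brightest probe the call was lost with Agilent's own log ratio (0.56, adjusted p = 0.11) as well. None of the 5 KCNE genes was called by limma in any comparison.

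KCNH2, the hERG channel of cardiac repolarization, was lower than Ctrl on all 4 arrays at -1.27, -1.04, -2.45 and -1.78. It fell in GALNT3 KO (mean -1.16, 2.23-fold lower, adjusted p = 0.0326) and on the GALNT3/T6-labelled arrays (-2.12, adjusted p = 0.00105). Its other probe stood at 0.02 and 0.07, and with the mean of both probes KCNH2 was at -0.57 in GALNT3 KO, where the call was lost, and at -1.02 on the other arrays. KCNA7, a Kv1 channel, fell in both groups, at -0.62, -0.65, -1.43 and -1.42. A second KCNA7 probe, beside it on chromosome 19, also fell in both (-0.98 and -1.42). The groups differed by -0.79 on the brightest probe (adjusted p = 0.00937).

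The Kv3 genes encode fast delayed rectifiers of neurons. KCNC1 stood at -0.41, -0.64, -1.73 and -1.58 and fell on the GALNT3/T6-labelled arrays (mean -1.65, adjusted p = 0.000439). Its 2 other probes were at 0.20 and 0.02 there, and the call was lost with the mean of all 3 probes (-0.48). KCNIP3, a calcium-binding partner of Kv4 channels, was called only between the groups (-0.85, adjusted p = 0.0463), a call that was lost with median centring (-0.80).

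Of the 14 inward rectifiers tested, KCNJ6, a G protein-gated channel, rose in GALNT3 KO, at 0.60 and 0.91 (mean 0.76, adjusted p = 0.032). It stood at -0.25 and -0.05 on the GALNT3/T6-labelled arrays. KCNJ2, a classical strong inward rectifier, fell to like values in both groups, at -0.65, -0.57, -0.63 and -0.56. The groups' means lay 0.02 apart (adjusted p = 0.945). Its relatives KCNJ4 (mean -0.70), KCNJ12 (-0.73) and KCNJ14 (-1.08) fell on the GALNT3/T6-labelled arrays. The KCNJ12 call was lost with the mean of its probes (-0.40) and on dropping either GALNT3 KO array, and its probe may also read its near-identical copy KCNJ18. With Agilent's own log ratio the calls of KCNJ6, KCNH2 and KCNJ2 in GALNT3 KO were lost, as was that of KCNJ2 on the GALNT3/T6-labelled arrays (-0.55).

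**Figure D3:**
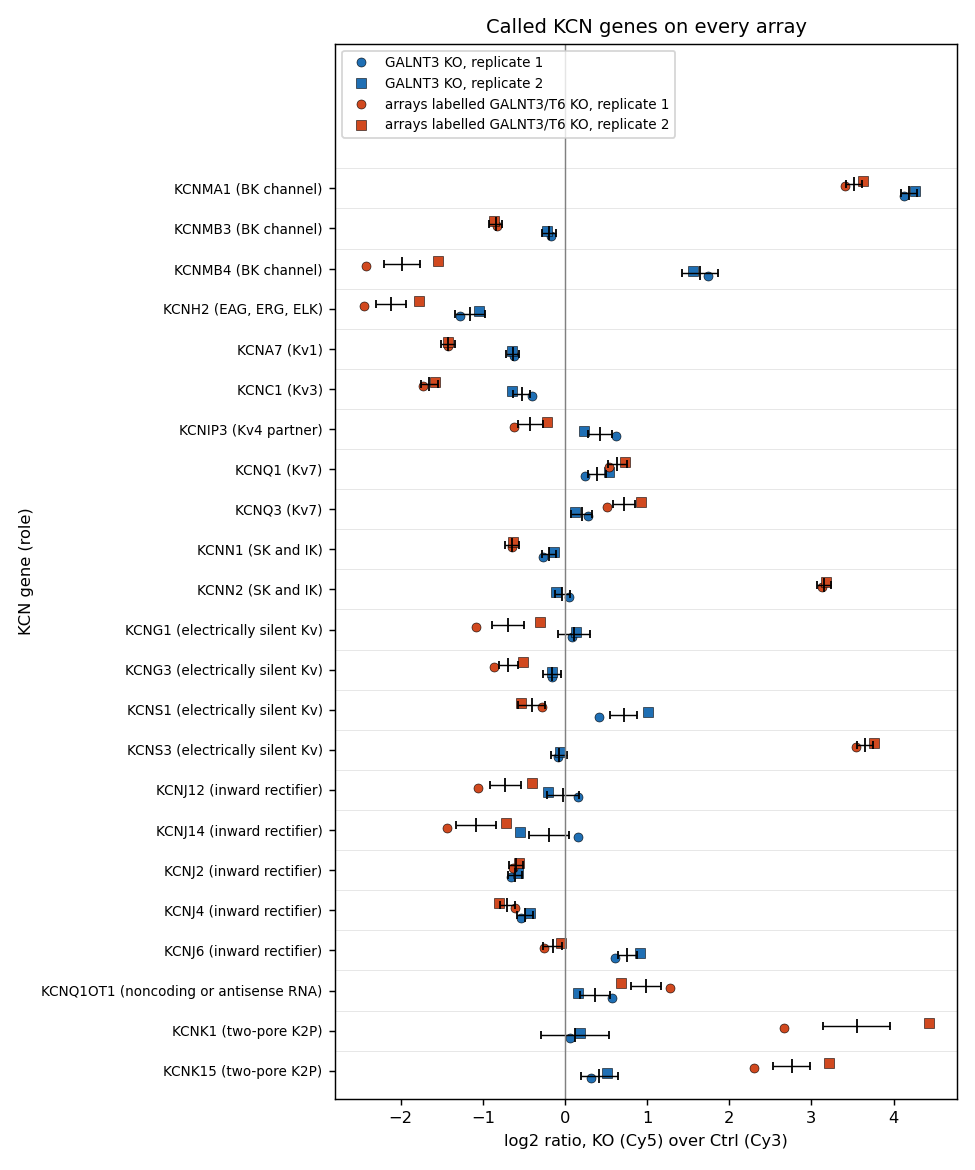
Log2 ratio of KO over Ctrl for KCN genes described here that were called in at least 1 comparison, on their brightest probe and ordered by role, with a point per array and a black mark with bars for the group mean and its limma standard error. KCNMA1 lies above 3.4 on all 4 arrays, and KCNS3, KCNK1, KCNN2 and KCNK15 are high on the GALNT3/T6-labelled arrays alone.

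**Figure D4:**
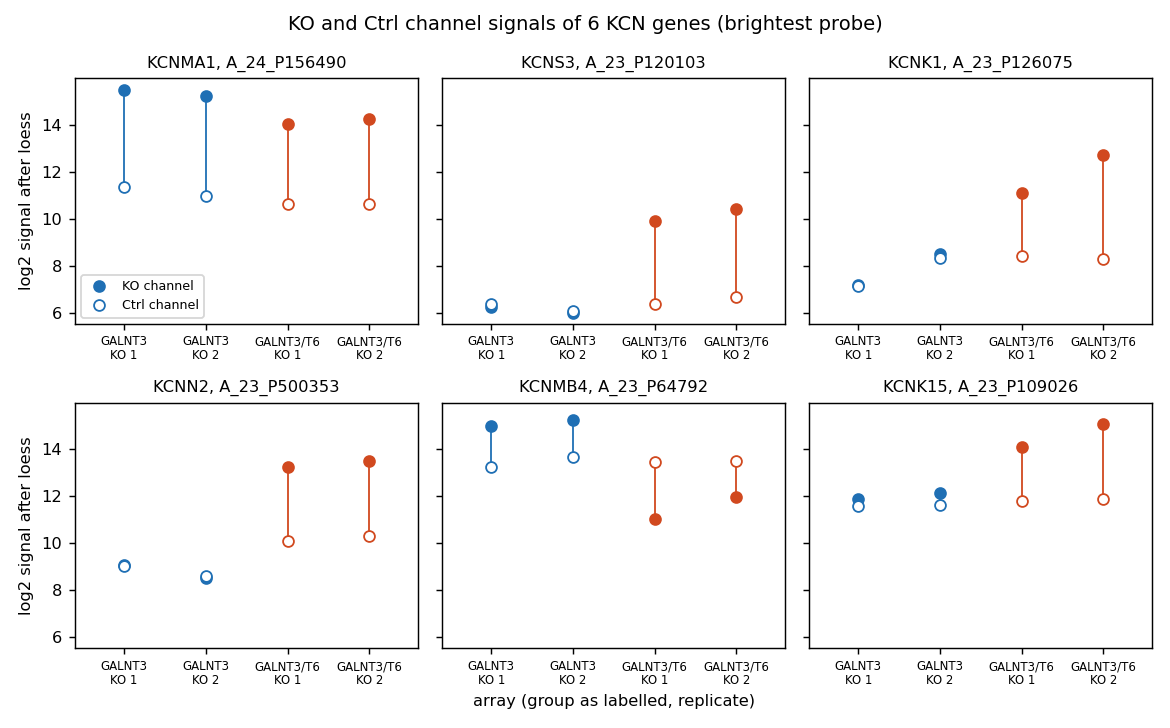
Log2 signal after loess in the KO channel (filled) and the Ctrl channel (open) on each array for the brightest probe of 6 KCN genes. The KCNMA1 Ctrl signal lies between 10.60 and 11.36, and the KCNN2 Ctrl signal is higher on the GALNT3/T6-labelled arrays (10.11 and 10.31) than on the GALNT3 KO arrays (9.03 and 8.62).

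Probes of 1 gene often differed, as in KCNMA1. Among the 33 KCN genes with over 1 tested probe, 0 had probes that limma called in opposite directions. The following genes were chosen after their values were seen, since they were called only on a probe other than the brightest. On the GALNT3/T6-labelled arrays, KCND3, a Kv4 channel, had a second probe at 1.53 (adjusted p = 0.00197) beside 0.35 on its brightest probe. KCNAB2, a Kv beta subunit, had 1.19 (adjusted p = 0.00157) beside -0.14. KCNK6 was called on a second probe between the groups (0.61, adjusted p = 0.035).

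The genes beside KCNMA1 on chromosome 10 were read as well. Within 2 Mb of its probes, 23 other gene names or unnamed probes were tested. In GALNT3 KO 0 rose by limma and 2 fell, against 2.39% and 4.64% of all genes, and their log2 ratios ran from -1.04 to 0.57. On the GALNT3/T6-labelled arrays 1 rose and 6 fell, against 14.3% and 16.9% of all genes. The gene that rose was ZNF503, a zinc finger gene, at 2.17 and 2.26 there (mean 2.22) and at 0.03 and 0.74 in GALNT3 KO. The nearest named gene, DLG5, lies 0.297 Mb away and had means of -0.61 and -0.80. An unnamed probe inside the KCNMA1 region stood at -0.13 and -0.25.

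**Figure D5:**
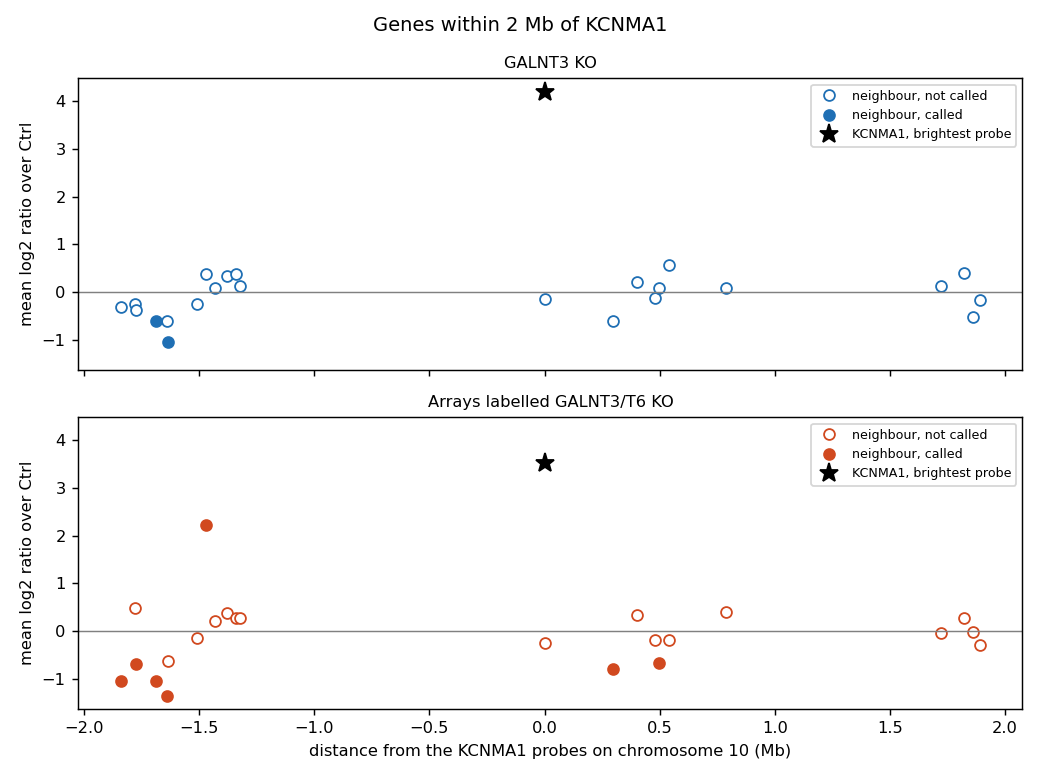
Mean log2 ratio over Ctrl of the genes within 2 Mb of KCNMA1 by their distance in Mb, with KCNMA1 as a star, the upper panel for GALNT3 KO and the lower for the GALNT3/T6-labelled arrays. In GALNT3 KO all neighbours lie between -1.04 and 0.57, and KCNMA1 lies at 4.19.

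Among the tested KCN genes, 21 neighbouring pairs lay within 1 Mb of each other. Both members were called on the GALNT3/T6-labelled arrays in 2 pairs, each in 1 direction, and 1 member in 5 pairs. On these arrays 22.8% of the KCN genes and 31.1% of all genes were called. Whether neighbouring pairs shared calls more often than other pairs was not tested. KCNQ1OT1 and KCNQ1 on chromosome 11 both rose on the GALNT3/T6-labelled arrays, and KCNJ14 and KCNA7 on chromosome 19 both fell. KCNK15 on chromosome 20 had a mean of 2.76 there beside -0.41 for KCNS1, which was not called there. On chromosome 3, KCNMB2, not called, stood at 0.23 beside -0.84 for KCNMB3.

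The other genes of calcium and potassium handling were read on lists, whose counts of calls on the GALNT3/T6-labelled arrays stand against 14.3% of all genes that rose and 16.9% that fell. In GALNT3 KO those shares were 2.39% and 4.64%. Of 9 voltage-gated calcium channel pore genes tested, 0 were called in GALNT3 KO (limma), and on the GALNT3/T6-labelled arrays CACNA1B rose (0.59) and CACNA1G, a T-type channel, fell. The CACNA1B call was lost with Agilent's own log ratio (0.23), with median centring (0.42), with the mean of its probes (0.23) and without replicate 2 of these arrays. CACNA1G stood at 0.25, -0.17, -2.13 and -2.16, with a mean of -2.14 on the GALNT3/T6-labelled arrays (adjusted p = 0.000365), and at -0.97 with the mean of its probes. Of 10 genes of calcium store and entry channels, 1 rose and 1 fell in GALNT3 KO, and 3 rose and 1 fell on the GALNT3/T6-labelled arrays. ITPR3, a receptor that releases calcium from the endoplasmic reticulum, had log2 ratios of -1.44 and -1.58 in GALNT3 KO and lay above 0 on both other arrays. It fell in GALNT3 KO (2.85-fold lower, adjusted p = 0.0264) and rose on the GALNT3/T6-labelled arrays (2.83-fold higher, adjusted p = 0.00414), the reverse of KCNMB4. RYR2, a calcium release channel, rose in GALNT3 KO (0.63), a call that was lost with Agilent's own log ratio.

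Of 13 genes of the sodium pump and of potassium cotransport, 1 fell in GALNT3 KO, and 1 rose and 2 fell on the GALNT3/T6-labelled arrays. ATP1B1, the beta1 subunit of the sodium pump, stood at -1.74, -1.54, 2.87 and 2.46. It fell in GALNT3 KO (mean -1.64, adjusted p = 0.0119) and rose on the GALNT3/T6-labelled arrays (2.67, adjusted p = 0.000245). SLC12A4, a potassium chloride cotransporter, fell there (-0.70). Its call was lost on dropping any of the GALNT3 KO arrays and without replicate 1 of the GALNT3/T6-labelled arrays. Dropping a GALNT3 KO array also ended the calls of ITPR3, RYR2 and ATP1B1 in GALNT3 KO.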

How the data were processed

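Log2 ratios of KO over Ctrl were taken from 4 two-colour Agilent arrays (GALNT3 KO and GALNT3/T6 KO, 2 clones each). Per the file headers, the deposited spot intensities were extracted with Agilent Feature Extraction 10.7.3.1, while the submitters' processing notes name 8.5.1.1. The same files hold a deposited log10 ratio of Cy5 over Cy3 from Agilent's background-subtracted and dye-normalized signals, per the file headers, and the deposited value table gives that log10 ratio rounded. Both were used as alternatives only, with exact zeros of the former treated as missing.

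Mean spot signals and median local backgrounds were corrected with normexp (offset 50) and normalized within each array by loess in R 4.3.3 with limma 3.58.1 and data.table (version 1.17.8). Control and outlier spots had weight 0 and were left out, and spots of 1 probe were averaged. A probe was tested if at least 1 channel was well above background on both arrays of at least 1 group. limma fitted 38195 probes on 4 arrays (2 residual degrees of freedom, 2.80 prior), tested each group mean against 0 and the difference of the means, and adjusted p by Benjamini-Hochberg over all probes. Calls needed an adjusted p of at most 0.05 and 1.5-fold, the latter after the criterion of the study, which used p unadjusted. The test against 0 leaves out the spread between Ctrl clones if all arrays shared the same Ctrl RNA. Each gene was read on its brightest tested probe. The fit was tested on simulated data.

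All KCNMA1 probes and the KCNMB genes were named, as were up to 10 called KCN genes per direction and comparison that moved alike on both arrays of a group, called members of the role lists, GALNT3 and GALNT6. Further lists held BK gamma subunits, calcium channels, calcium store and entry channels, sodium pump and cotransport genes, cell type markers and genes within 2 Mb of KCNMA1. Values of some listed genes are not reported here. Members and lists were chosen with earlier results of these data known. Alternatives changed the background correction, the dye normalization, the filter, the probe rule, the call rule, the replicate block and the arrays. Gene names, transcripts and hg19 coordinates are those of the array files, and no genome was used. With 2 arrays a group the precision is low.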

Additional observations from a re-analysis of the deposited data

Results flagged for a closer look

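Among the KCN genes, KCNMB4 was called in opposite directions against Ctrl in the 2 groups, with a rise in GALNT3 KO and a fall on the GALNT3/T6-labelled arrays, and the groups differed by -3.64 on the log2 scale (limma, adjusted p = 0.00223). ITPR3 and ATP1B1 showed the reverse order, lower in GALNT3 KO and higher on the GALNT3/T6-labelled arrays, with differences of 3.01 (limma, adjusted p = 0.00294) and 4.31 (adjusted p = 0.000459). VIM, the gene of the intermediate filament vimentin, stood at 1.11, 1.12, -2.84 and -1.87 on GALNT3 KO replicates 1 and 2 and replicates 1 and 2 of the other group, and the groups differed by -3.48 (limma, adjusted p = 0.00304). Its call in GALNT3 KO (mean 1.12, adjusted p = 0.0499) lay at the threshold and was lost with loess on uncorrected signals (adjusted p = 0.0507), and its adjusted p ran up to 0.437 over the alternatives. All 4 lost their call in GALNT3 KO when either array of that group was left out.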

How the results depend on the processing

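KCNMA1 remained higher than Ctrl in both groups under every alternative run, with log2 ratios of 1.72 to 4.26 in GALNT3 KO and 1.36 to 3.63 on the GALNT3/T6-labelled arrays. The number of KCN genes called in GALNT3 KO (7) became 3 with Agilent's log ratio, 3 with the deposited value table and 12 with no minimum fold, where GALNT6 (-0.42) was also called. On the GALNT3/T6-labelled arrays the number (21) became 35 with no minimum fold. With 1 array left out in turn, the lone array of a group was assumed to vary like the others. The number then ran from 0 to 9 in GALNT3 KO, with 0 without either GALNT3 KO array, and from 2 to 21 for the difference between the groups (14). KCNMA1 in GALNT3 KO ran from 4.12 to 4.26 and was not called without GALNT3 KO replicate 1 or 2. Its difference between the groups was no longer called with median centring (-0.64) or the mean of all probes (-0.36), and ran from -0.78 to -0.56 with 1 array left out. The cause was not tested. KCNMB2 on the GALNT3/T6-labelled arrays changed sign with the mean of all probes (-0.021). With 1 array left out, differences between the groups that were never called changed sign. They ran from -0.11 to 0.029 for KCNMB1, from -0.30 to 0.14 for KCNMB2, from -0.40 to 0.034 for KCNMA1 probe A_32_P181222 and from -0.53 to 0.17 for A_24_P61150.

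The labels share replicate numbers 1 and 2 between the groups but do not say that a number marks a shared clone, batch or day, and the deviations of same-numbered arrays correlated at -0.22 over 38195 probes. With a replicate block, 1 KCN gene was called in GALNT3 KO, 20 on the GALNT3/T6-labelled arrays and 11 between the groups, and the KCNMA1 difference of -0.67 had a limma adjusted p of 0.0565. Low signal over background limits the 6 KCN genes that passed the filter through 1 group only, and 2 arrays a group limit every call. A fit by genes could not be made for single KCNMA1 probes, nor a fit of 1 group's arrays for the difference between the groups.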
